A study of Mus musculus with 4 samples.

Results

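The genes described here are 10 genes of the circadian clock (Per1, Per2, Per3, Cry1, Ciart, Nr1d1, Nr1d2, Dbp, Tef and Arntl), followed in 6 brain regions of mice whose midbrain dopamine (DA) neurons had been chronically activated. They were taken by gene symbol from the 22376 genes in the deposited tables, and all 10 were present on each of the 4 arrays. Gene expression was measured with Visium arrays, on which RNA from a frozen brain section is captured by barcoded discs and counted as unique molecules (UMIs), in 1 midbrain and 1 striatal section from each of 8 mice. All mice were male, 3 to 4 months old and homozygous for DATiCre, a Cre allele active in DA neurons, and all were housed singly with a running wheel. GqCNO mice (n = 3) had the excitatory designer receptor hM3Dq expressed in DA neurons from a Cre-dependent virus injected on both sides of the midbrain, and drank its ligand clozapine-N-oxide (CNO, 300 mg/L with 2% sucrose) for 1 week. GqVeh mice (n = 3) had the same virus and drank 2% sucrose, and CNO alone mice (n = 2) had no injection and drank CNO. The hour of day at which the brains were taken is not given in the sources used here.

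The clock is a feedback loop in which the protein of Arntl (BMAL1), paired with CLOCK, binds E-box sequences and switches on the Per, Cry, Nr1d, Ciart, Dbp and Tef genes. The PER, CRY and CIART proteins then hold BMAL1 and CLOCK back, the REV-ERB receptors made from Nr1d1 and Nr1d2 repress Arntl through ROR elements, and DBP and TEF activate genes that carry a D-box. In most tissues, the striatum included, the RNAs of these genes rise and fall over the day, with Arntl out of phase with Dbp, and Per1 also responds to glucocorticoids and to cAMP.

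Promoter windows (250 bases before to 50 bases after an annotated start, RefSeq, GRCm38.p6) were at hand for 9 of the 10 genes, 12 windows in all, and the stretches below are shown because they hold the letters through which the clock proteins are known to act. Capitals mark the E-box CACGTG, which reads the same on both strands, in Ciart, Cry1, Per1 and Tef, the D-box TTATGTAA in Per3, and a ROR element in Arntl. Each stretch is written 5′ to 3′ on the strand of its gene.
Ciart (chr3:95882319-95882364, minus strand): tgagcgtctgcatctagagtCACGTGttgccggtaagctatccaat
Cry1 (chr10:85185089-85185134, minus strand): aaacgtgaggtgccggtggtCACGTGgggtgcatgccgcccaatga
Per1 (chr11:69098763-69098808, plus strand): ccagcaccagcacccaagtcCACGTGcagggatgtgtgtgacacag
Tef (chr15:81802526-81802571, plus strand): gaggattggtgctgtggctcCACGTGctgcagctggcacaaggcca
Per3 (chr4:151044843-151044890, minus strand): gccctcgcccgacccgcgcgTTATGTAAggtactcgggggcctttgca
Arntl (chr7:113207518-113207560, plus strand): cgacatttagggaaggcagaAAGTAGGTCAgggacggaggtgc

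The E-box letters were found in 5 of the 12 windows, from 4 genes, and in 7.15% of all 32851 windows of the same length. The D-box TTATGTAA was found in 1 of the 12 windows and in 0.938% of all windows, and the related TTACGTAA in 0 of the 12 and in 0.119%. The ROR element was found in 1 of the 2 windows of Arntl and in 0.773% of all windows, and the cAMP response element TGACGTCA in 0 of the 12 and in 1.79%. All motifs were searched on both strands and none of the printed ones overlaps another. These matches describe letters only, and windows without a match say nothing about binding elsewhere.

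The depth behind the 10 genes differed widely between regions. In the caudoputamen (CP), the dorsal striatum, the 10 genes together had 3448 to 7132 UMIs in a mouse. They had 42 to 717 in the lateral septal complex (LSX), 32 to 176 in the white matter, 81 to 382 in the thalamus, 5 to 106 in the ventral tegmental area (VTA) and 2 to 28 in the substantia nigra (SN). GqCNO mouse 801 had no thalamus column. Levels are given as UMIs per 10000 UMIs of a column, where a column is 1 region of 1 mouse. At these depths 39 of the 80 SN values were 0, against 0 in the CP. A count of 0 allows a level of up to 3 UMIs of the column's total, which is 3.86 per 10000 in the SN of mouse 801. A gene was tested in a region where its mean level reached 0.25 per 10000 (midbrain) or 0.05 (striatal sections). All 10 genes were tested in the CP, LSX and white matter, 7 in the thalamus, 5 in the SN and 4 in the VTA. Where a value is low in a region, fewer cells of a type and less RNA per cell cannot be told apart.

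Marker sums describe the CP, thalamus and white matter. By the paper's methods, discs were chosen by position and by known marker genes. These were Ppp1r1b in the CP, Prkcd, Ptpn3 and Synpo2 in the thalamus and Mbp in the white matter. Those genes are in the lists summed here, so the sums are no independent check of the labels. The 6 genes of striatal projection neurons summed to 58.4 to 71.3 per 10000 in the CP and to at most 5.09 in the LSX and 8.21 in the white matter. The 5 genes of thalamic neurons summed to 23.2 to 30.5 in the thalamus and to at most 1.94 in the VTA and 5.76 in the LSX. The 6 oligodendrocyte genes summed to 385 to 873 in the white matter and to at most 76.8 in the CP and 192 in the SN.

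**Figure D1:**
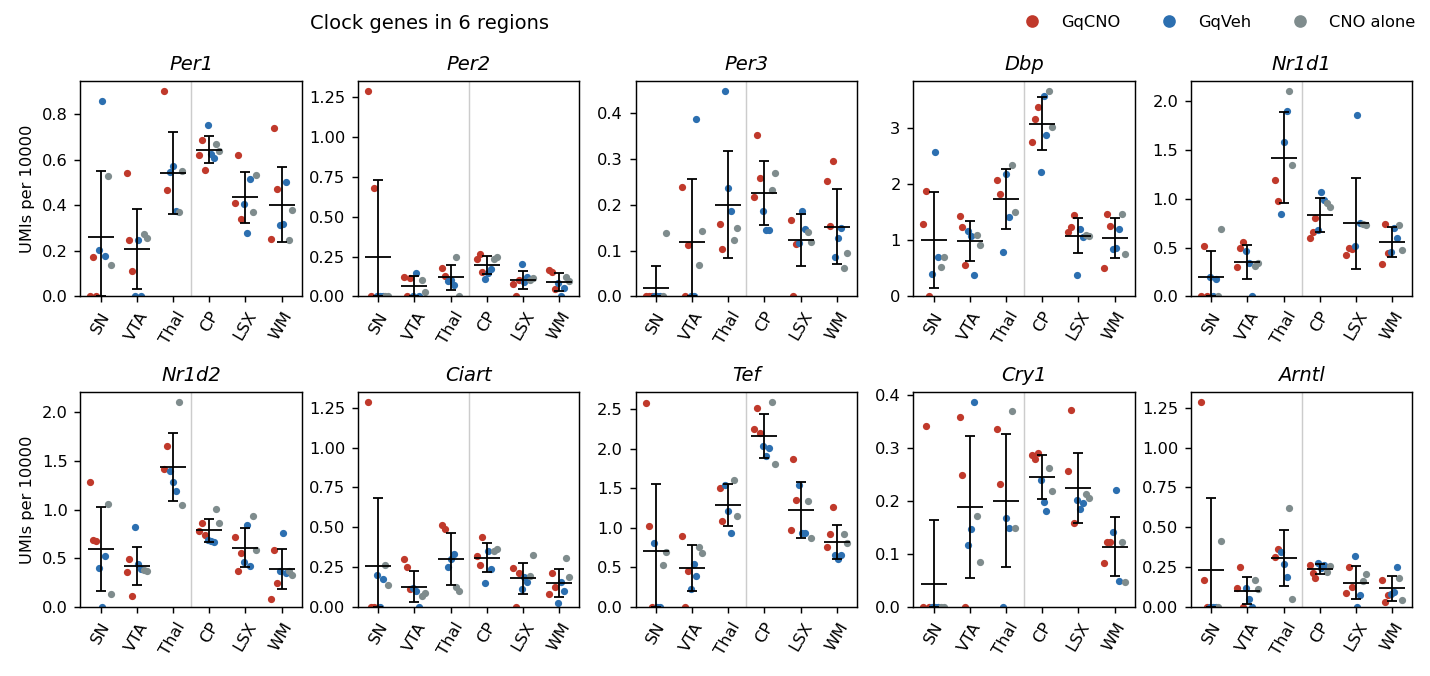
Level of each clock gene (y axis, UMIs per 10000, a separate scale for each gene) in the SN, VTA, thalamus (Thal), CP, LSX and white matter (WM), with a point for each mouse coloured by group and the mean ± SD over mice in black (the lower bar ends at 0). The grey line separates midbrain from striatal arrays, which were normalized separately. Dbp and Tef lie highest in the CP, at means of 3.08 and 2.16, and Nr1d1 and Nr1d2 in the thalamus, at 1.42 and 1.44.

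Among striatal regions the mean levels of the clock genes were highest in the CP, though not all differences passed. Within the mouse, all 10 genes were higher in the CP than in the LSX on average, and 6 of 10 passed (Dbp, Tef, Per1, Ciart, Per2 and Nr1d2, adjusted p under 0.05 in limma). Over all genes, 14.4% passed as higher in the CP and 19.7% as lower (22% and 11.6% when regions were scaled together by TMM, which moved the median of all genes by 0.16). The median log2 difference of the 10 genes was 0.73, and that of all 10262 genes -0.02. With TMM 9 of 10 passed. Without mice 804 and 784, whose LSX columns rested on under 10 discs each, 9 of 10 also passed. The share of all genes is not given for that setting, so the rise cannot be read as particular to the clock genes.

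Dbp, which encodes a PAR bZIP activator and is a direct target of BMAL1 and CLOCK (ENSMUSG00000059824, chromosome 7 of GRCm38 from 45705100 to 45710203), differed most. Its level in the CP was 2.76, 3.16 and 3.38 per 10000 in GqCNO mice, 2.22, 3.58 and 2.88 in GqVeh mice and 3.66 and 3.01 in CNO alone mice. In the LSX it was 1.14, 1.24 and 1.45, then 0.376, 1.21 and 1.06, and then 1.10 and 1.08, in the same order of mice. The lowest CP value lay above the highest LSX value, and the difference was 2.88-fold (log2 difference 1.53, standard error 0.12, adjusted p = 1.37e-07, higher in 8 of 8 mice). Tef, a paralogue of Dbp, was at 2.16 ± 0.28 (SD, n = 8) in the CP and 1.22 ± 0.36 in the LSX, 1.78-fold higher (log2 difference 0.83, standard error 0.10, adjusted p = 1.11e-05) and also higher in 8 of 8 mice. Per1, an inhibitor of the loop, was higher by a log2 difference of 0.55 (adjusted p = 0.00302) in 8 of 8 mice. Ciart, another inhibitor, was higher by 0.78 (adjusted p = 0.0202) in 8 of 8 mice, but did not pass in the control mice alone (0.48, adjusted p = 0.0601) or with a smaller constant (adjusted p = 0.0761).

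Per2 and Nr1d2 passed by a smaller margin. Per2 was at 0.195 ± 0.057 in the CP and 0.102 ± 0.056 in the LSX (log2 difference 0.76, adjusted p = 0.0473), and Nr1d2 at 0.785 ± 0.118 and 0.610 ± 0.203 (0.39, adjusted p = 0.0383). Each was higher in the CP in 7 of 8 mice. Neither passed in limma in the control mice alone (0.37, adjusted p = 0.302 for Per2 and 0.29, adjusted p = 0.171 for Nr1d2). Both calls also depended on single mice. Per2 no longer passed without any 1 of the 7 mice other than 802 (adjusted p from 0.0554 to 0.109), and its difference was smallest, at 0.49, without GqCNO mouse 804, whose LSX column held 7 discs and no UMI of Per2, Per3 or Ciart. Nr1d2 no longer passed without 804, 781, 802, 785 or C1W7 (adjusted p from 0.062 to 0.0944). Per3, Arntl, Nr1d1 and Cry1 did not pass (log2 differences of 0.74, 0.72, 0.27 and 0.12, adjusted p from 0.0547 to 0.563).

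Against the white matter, 9 of 10 clock genes passed as higher in the CP, where 32.7% of all genes did so and 15.1% were lower. The median log2 difference of the 10 genes was 0.91 and that of all genes 0.23. Dbp was again the most different (1.57, standard error 0.13, adjusted p = 5.63e-09), followed by Tef (1.37, adjusted p = 4.72e-09) and Nr1d2 (1.08, adjusted p = 0.00035). Arntl, the activator arm of the loop, was at 0.240 ± 0.033 in the CP and 0.117 ± 0.076 in the white matter (0.92, adjusted p = 0.00231) and higher in 8 of 8 mice. Per3 did not pass (0.50, adjusted p = 0.0707).

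The LSX and the white matter were closer to each other. Tef (0.54, adjusted p = 0.00958), Nr1d2 (0.70, adjusted p = 0.0372) and Cry1 (0.78, adjusted p = 0.0325) passed as higher in the LSX, 3 of 10 genes, where 29.6% of all genes passed as higher and 11.7% as lower. With TMM, which lowered the median of all genes by 0.20, 0 of 10 passed, with 17.8% of all genes higher and 15.4% lower. Without GqCNO mouse 801 or without CNO alone mouse C1W7, 1 of 10 passed, with no share of all genes given for those settings. Dbp was at 1.08 ± 0.31 and 1.05 ± 0.36 (log2 difference 0.05, standard error 0.19).

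In the midbrain sections 4 of the 10 clock genes could be compared between each DA neuron region and the thalamus. All 4 genes tested in the VTA (Nr1d1, Nr1d2, Tef and Dbp) passed as lower there than in the thalamus, where 13.4% of all genes passed as lower and 11.8% as higher (14.6% and 7.94% with TMM). Their median log2 difference was -1.03, and that of all 5316 genes -0.0039.

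Nr1d1, the gene of REV-ERBα (ENSMUSG00000020889, chromosome 11 of GRCm38 from 98767932 to 98775377), showed the largest of these differences. Its level in the thalamus was 1.19 and 0.98 per 10000 in GqCNO mice 804 and 781, 0.846, 1.58 and 1.90 in GqVeh mice, and 2.10 and 1.35 in CNO alone mice. In the VTA it was 0.497 and 0.562 in the same 2 GqCNO mice, 0.468, 0.343 and 0 in GqVeh mice, and 0.309 and 0.343 in CNO alone mice. The values of the 2 regions did not overlap (log2 difference -1.16, standard error 0.19, adjusted p = 3.42e-05, lower in 7 of 7 mice). Nr1d2, the gene of REV-ERBβ, differed by -1.07 (adjusted p = 2.43e-05) and Tef by -0.98 (adjusted p = 0.000153), each lower in 7 of 7 mice. Dbp differed by -0.65 (adjusted p = 0.00649) and was lower in 6 of 7.

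The SN rested on few UMIs, 95 for the 10 genes over 8 mice. Tef (-1.07, adjusted p = 0.0008), Nr1d2 (-1.03, adjusted p = 0.00113) and Dbp (-0.79, adjusted p = 0.013) passed as lower in the SN than in the thalamus, and Per1 (-0.44) did not, which made 3 of 4 where 9.72% of all genes were lower and 6.41% higher. With TMM, which lowered the median of all genes by 0.25, 4 of 4 passed and 23% of all genes were lower against 1.22% higher. Without GqCNO mouse 781, whose SN column was 1 disc with no UMI of Dbp, the Dbp difference was -0.55 (adjusted p = 0.126), and without CNO alone mouse C2W2 it was -0.68 (adjusted p = 0.0729). In the control mice alone it was -0.64 (adjusted p = 0.137). Between SN and VTA, 0 of the 3 genes tested in both passed in limma (0 also at an unadjusted p under 0.05), against 0.225% of all genes. The log2 differences were 0.17 for Nr1d2, 0.06 for Tef and -0.14 for Dbp, each smaller than its standard error of 0.291 to 0.295.

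**Figure D2:**
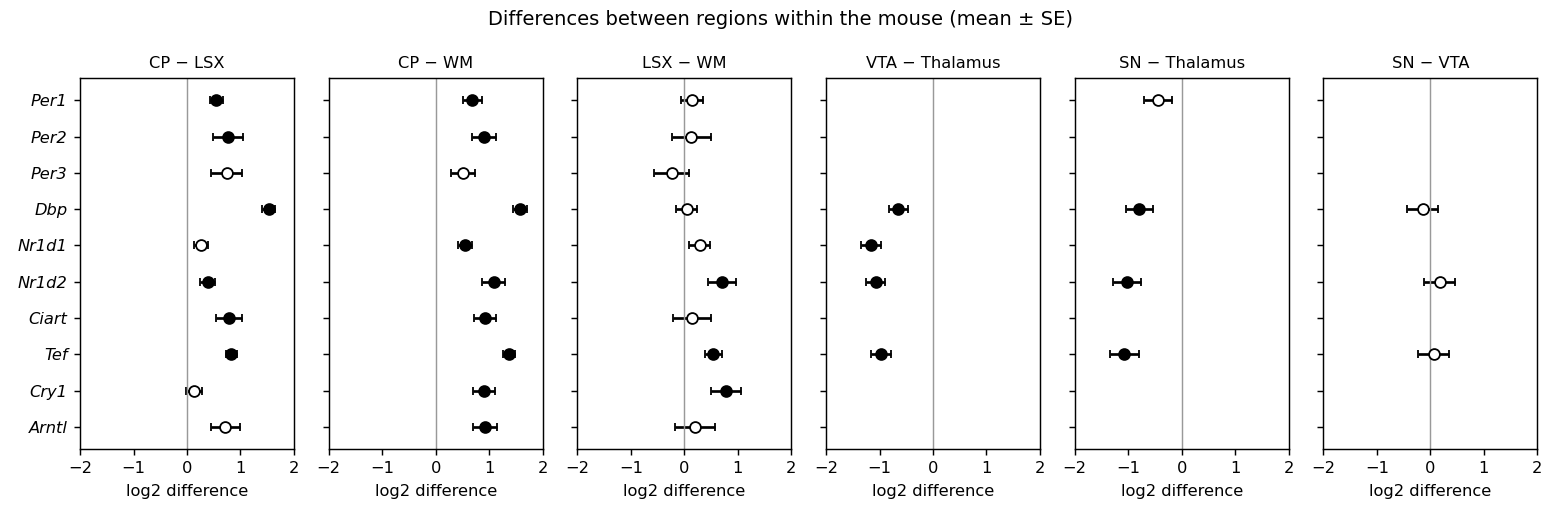
Mean log2 difference between 2 regions within the mouse (x axis) for each clock gene (y axis), with the standard error of limma as bars. Filled points passed an adjusted p under 0.05 and empty points did not, and genes below the level tested have no point. All 10 genes lie to the right of 0 for CP against LSX and CP against WM, and all points for VTA or SN against thalamus lie to the left.

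Set side by side with no test, since midbrain and striatal arrays were normalized separately, the order of the 6 regions was not the same for all clock genes. Dbp had means of 3.08 in the CP, 1.74 in the thalamus and 0.987 to 1.08 in the other 4 regions. Tef had 2.16 in the CP, 1.29 in the thalamus and 1.22 in the LSX. Nr1d1 had 1.42 in the thalamus and 0.834 in the CP, and Nr1d2 had 1.44 and 0.785. Ciart and Cry1 were near each other in thalamus and CP (0.303 and 0.310 for Ciart, 0.201 and 0.245 for Cry1).

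Other genes of the clock and its target pathways, a list of 20 named genes, were compared in the same fits. Between CP and LSX, 15 were tested. Usp2, the gene of a deubiquitinase, was higher in the CP by a log2 difference of 1.47 (adjusted p = 1.72e-07) and Hlf, the remaining PAR bZIP gene, by 1.39 (adjusted p = 1.01e-06). Npas2, a paralogue of Clock, was higher by 0.90, Btrc by 0.75, Bhlhe41 by 0.60, Rora by 0.54 and Cry2 by 0.41, which made 7 higher. The kinase genes Csnk1d (-0.39) and Csnk1e (-0.32) and the repressor Bhlhe40 (-0.44) were lower, 3 of 15. Against the white matter 8 of 15 were higher in the CP and 0 lower, led by Hlf (2.07, adjusted p = 2.27e-09). Between VTA and thalamus 6 of 12 were lower in the VTA and 0 higher, with Rora, the activator that competes with the REV-ERB receptors, at -3.36 (adjusted p = 1.28e-15), Hlf at -1.85 and Usp2 at -1.32. Between SN and thalamus 5 of 10 were lower in the SN (Rora, Hlf, Usp2, Cry2 and Fbxw11) and 0 higher. Of all genes, 14.4% passed as higher in the CP than in the LSX and 19.7% as lower, near the 3 of 15. Against the white matter these shares were 32.7% and 15.1%. In the VTA 13.4% of all genes were lower than in the thalamus and 11.8% higher, and in the SN 9.72% and 6.41%.

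The comparison of GqCNO with control mice asks whether chronic activation of DA neurons moved the clock genes. In limma, 0 of 46 tests of a clock gene in a region passed an adjusted p under 0.05, over all 6 regions, against all 5 controls. The share of all genes that passed was 0.648% (SN), 1.52% (VTA), 0% (thalamus, CP and LSX) and 0.0367% (white matter). At an unadjusted p under 0.05, 5 of the 46 tests passed in limma (3 higher, 2 lower). With edgeR's quasi-likelihood test on recovered UMIs 7 passed, and with the methods' t-test 3. Neither of these called a clock gene after adjustment. Shares of all genes are given for limma alone, so the counts from the other tests have no background beside them. Of all genes, 7.82% passed that unadjusted level in limma in the SN, 10.8% in the VTA, 3.34% in the thalamus, 3.7% in the CP, 3.19% in the LSX and 2.96% in the white matter. The 5 were Per3, Cry1 and Nr1d1 in the CP, Ciart in the thalamus and Nr1d1 in the LSX. Of these, Ciart reached the level tested in the thalamus through the GqCNO mice. Against GqVeh alone the shares of all genes were 0.194% in the SN, 0.475% in the VTA, 0.0462% in the CP, 0.0367% in the white matter and 0% elsewhere. Against CNO alone they were 0.615% in the SN, 1.12% in the VTA and 0% elsewhere, and 0 of 46 clock gene tests passed in either (5 and 2 at an unadjusted p under 0.05 in limma, 7 and 2 with edgeR). The unadjusted level was passed against GqVeh by 6.09% of all genes (SN), 10.9% (VTA), 1.3% (thalamus), 4.04% (CP), 3.69% (LSX) and 2.62% (white matter). Against CNO alone it was passed by 6.06%, 6.1%, 9.38%, 2.52%, 1.16% and 4.21%, in the same order of regions. Of the 20 other clock genes, 10 to 16 were tested in a region and 0 passed against all controls in any of the 6 regions (2 tests at an unadjusted p under 0.05 in limma).

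**Figure D3:**
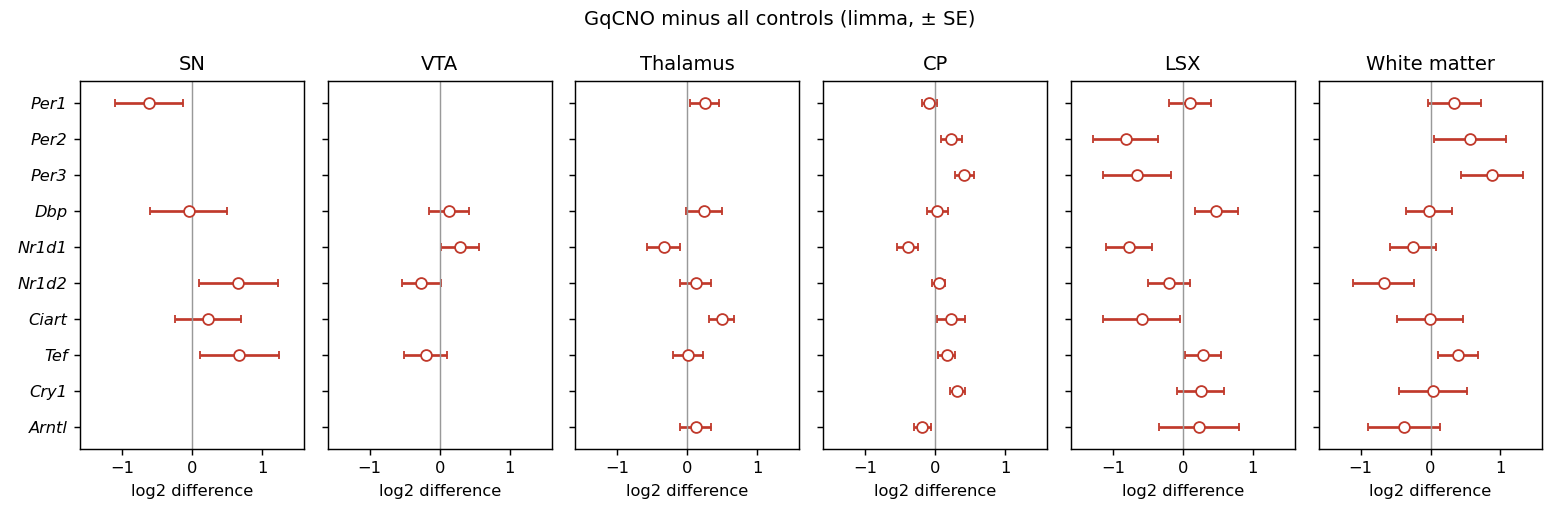
Log2 difference of GqCNO mice and all control mice (x axis) for each clock gene (y axis) in each of 6 regions, with the standard error of limma as bars. Genes below the level tested have no point. None of the 46 points passed after adjustment over all genes. The standard errors are 0.10 to 0.20 in the CP.

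The CP gave the most precise values. There the standard deviation over the 8 mice was 9.26% to 30.8% of the mean for the 10 genes, above the 2.46% to 9.97% that counting error alone gives, for 10 of 10 genes. Cry1, a core inhibitor of the loop (ENSMUSG00000020038, chromosome 10 of GRCm38 from 85131700 to 85185054), was at 0.288, 0.279 and 0.290 per 10000 in GqCNO mice. It was at 0.240, 0.199 and 0.182 in GqVeh mice and at 0.264 and 0.220 in CNO alone mice. All 3 GqCNO mice lay above all 5 controls, by a log2 difference of 0.32 (standard error 0.11, unadjusted p = 0.0121, adjusted p = 0.999 in limma). The two-sided exact permutation p was 0.0357 over 56 splits, of which 0.0179 is the smallest possible. Within array pair 1 the difference was 0.14 and within array pair 2, which holds 1 GqCNO mouse, 0.45. Cry1 was the only clock gene of 10 in the CP whose groups did not overlap, where 3.07% of all genes had no overlap.

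Per3, another inhibitor (ENSMUSG00000028957, chromosome 4 of GRCm38 from 150997018 to 151044707), was at 0.218, 0.353 and 0.258 in GqCNO mice, 0.187, 0.144 and 0.146 in GqVeh mice and 0.231 and 0.268 in CNO alone mice. The GqVeh mice were the low group and the other groups overlapped. The log2 difference was 0.42 against all controls (unadjusted p = 0.0116, adjusted p = 0.999), 0.63 against GqVeh (unadjusted p = 0.00186, adjusted p = 0.775) and 0.10 against CNO alone. Per2 also had its lowest mean in GqVeh mice. It was at 0.234, 0.267 and 0.156 in GqCNO mice and, overlapping them, at 0.108, 0.147 and 0.170 in GqVeh mice. In CNO alone mice it was at 0.233 and 0.246. Nr1d2 was at 0.785, 0.867 and 0.741 in GqCNO mice, 0.684, 0.674 and 0.667 in GqVeh mice and 1.0 and 0.863 in CNO alone mice. Its GqVeh mice were the lowest. The share of all genes with such an order of groups was not computed.

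The 2 control groups were also set against each other, for all clock genes tested. GqVeh differed from CNO alone in the CP by a log2 difference of -0.61 for Per2, -0.52 for Per3 and -0.43 for Nr1d2 (unadjusted p = 0.00826, 0.0115 and 0.00445, adjusted p of 1.0 for each in limma). These were 3 of 10 clock genes at an unadjusted p under 0.05, where 3.68% of all genes passed that level and 0% passed after adjustment. Over all regions 0 of 46 clock gene tests passed between the controls after adjustment (3 at an unadjusted p under 0.05 in limma, 4 with edgeR), against 0.0648% of all genes (SN), 0.0792% (VTA) and 0% in the other 4 regions. The unadjusted level was passed by 1.46% of all genes in the SN, 2.04% in the VTA, 7.84% in the thalamus, 0.96% in the LSX and 4.16% in the white matter. The comparisons of GqCNO with each control share their GqCNO mice, and those with all controls share both.

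Nr1d1 had a negative difference in 4 of the 5 regions in which it was tested, with the SN left out by its low level. In the CP it was at 0.601, 0.663 and 0.799 in GqCNO mice, 0.678, 1.07 and 0.992 in GqVeh mice and 0.960 and 0.913 in CNO alone mice. GqVeh mouse 802 lay among the GqCNO mice and the other 4 controls above them. The log2 difference was -0.39 (standard error 0.15, unadjusted p = 0.0215, adjusted p = 0.999, exact permutation p = 0.0714), with -0.33 in array pair 1 and -0.29 in array pair 2. In the LSX all 3 GqCNO mice (0.424, 0.497 and 0.487) lay below the 5 controls, whose lowest was 0.521 and whose highest was 1.86 in GqVeh mouse 784. The difference there was -0.77 (unadjusted p = 0.0376, adjusted p = 0.911), or -0.53 without mice 804 and 784 (adjusted p = 0.991), and 1 of 10 clock genes had no overlap, against 3.49% of all genes. In the thalamus it was -0.34, in the white matter -0.25 and in the VTA 0.29, none with an unadjusted p under 0.05. The difference between CP and LSX in this response was 0.38 (standard error 0.27, unadjusted p = 0.189), and that between VTA and thalamus 0.75 (standard error 0.42, unadjusted p = 0.0817). No clock gene passed a test of a difference in response between 2 regions in limma (0 of 3 for SN and VTA, of 4 for VTA and thalamus and of 10 each for CP with LSX and with white matter, also 0 at an unadjusted p under 0.05), where 0.47% of all genes passed between VTA and thalamus and 0% for the other 3 pairs.

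**Figure D4:**
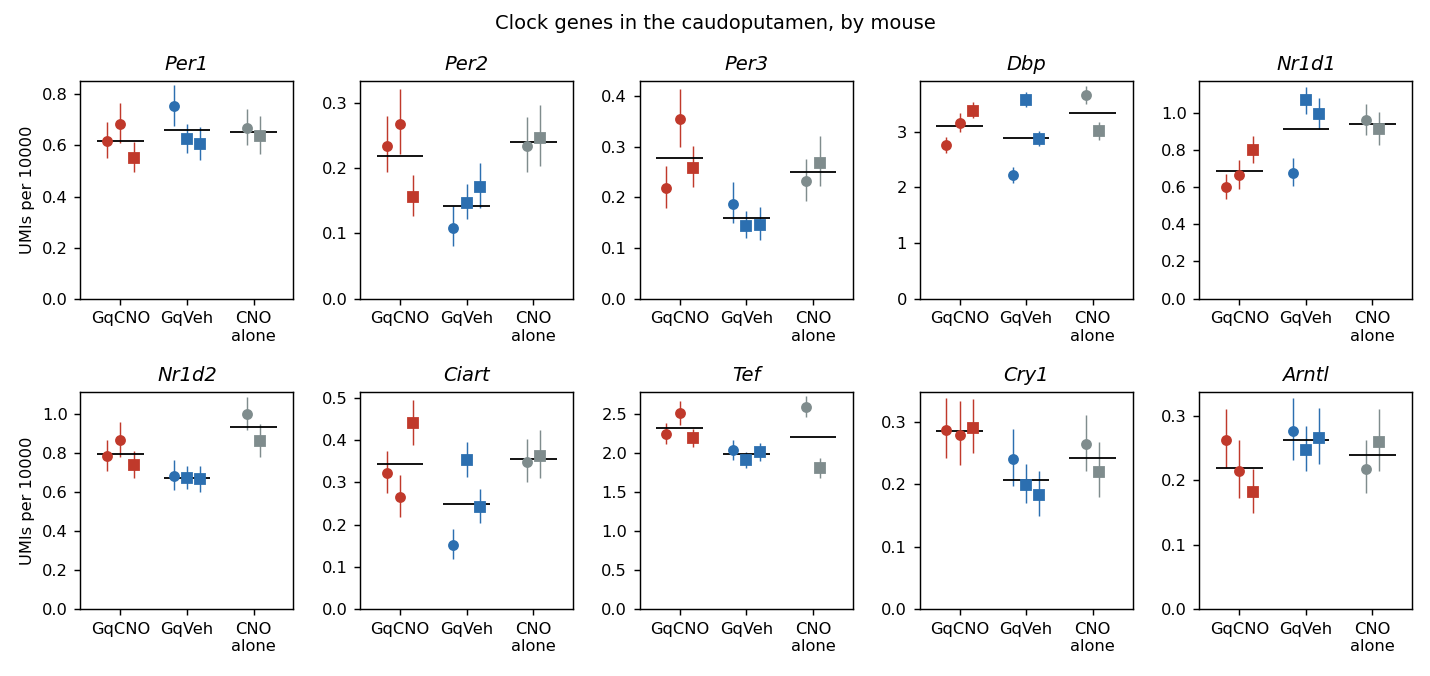
Level of each clock gene in the CP (y axis, UMIs per 10000, from 0) in each mouse by group, with exact binomial 95% intervals for counting error and the group mean as a black line. Circles are mice of array pair 1 and squares mice of array pair 2. Cry1 has its 3 GqCNO mice at 0.279 to 0.290, above the 5 controls, and Per2, Per3 and Nr1d2 have their lowest means in GqVeh mice.

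For the remaining clock genes in the CP, GqCNO mice overlapped with the range of the 5 controls. Dbp differed by 0.03 (standard error 0.15), Nr1d2 by 0.05 (0.10), Per1 by -0.08 (0.11), Tef by 0.17 (0.12), Arntl by -0.18 (0.12), Ciart by 0.23 (0.20) and Per2 by 0.23 (0.15). Per1 was at 0.619, 0.684 and 0.552 in GqCNO mice and at 0.606 to 0.752 in controls. Beside it, the 9 glucocorticoid-responsive genes summed to 2.29 to 3.23 per 10000 in the CP of GqCNO mice and 1.79 to 2.19 in controls. The 9 immediate-early genes of neuronal activity summed to 2.19 to 4.66 and 4.11 to 7.15. The part of either in the level of Per1 was not tested.

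Outside the CP and LSX, Ciart and Per3 had 1 result each in which the groups did not overlap. Ciart in the thalamus was at 0.517 and 0.490 in the 2 GqCNO mice, 0.249, 0.303 and 0.335 in GqVeh mice and 0.124 and 0.10 in CNO alone mice. Its log2 difference was 0.49 (standard error 0.18, unadjusted p = 0.0134, adjusted p = 0.998), and the exact permutation p of 0.0952 came from 21 splits. This was 1 of 7 clock genes with no overlap in the thalamus, where 7.64% of all genes had none. Ciart reached the level tested there through the GqCNO mice (mean 0.504, against 0.222 in controls). Its p-values and lack of overlap are therefore no support for a change. Per3 in the white matter was at 0.251, 0.154 and 0.296 in GqCNO mice, 0.0851, 0.127 and 0.15 in GqVeh mice and 0.0614 and 0.095 in CNO alone mice. It rested on 33 UMIs in all 8 mice and differed by 0.88 (standard error 0.44, adjusted p = 0.998, exact permutation p = 0.0179, the smallest possible), 1 of 10 clock genes against 2.37% of all genes. Beside it, the 4 haemoglobin genes summed to 27.4 to 35.3 per 10000 in the white matter of GqCNO mice and 6.08 to 14.1 in controls. The 9 glucocorticoid-responsive genes summed to 5.50 to 15.8 and 2.21 to 4.89, and the part of either list was not tested.

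In the SN and VTA the differences had standard errors of 0.27 to 0.57, and no group was separate for any of the 9 tests (the share of all genes with no overlap was 6.11% and 8.22%). Tef (0.67) and Nr1d2 (0.66) had the highest differences in the SN and Per1 (-0.61) the lowest, with a smallest adjusted p of 0.757 in limma. These rested on few counts. Per1 had 7 UMIs in all 8 mice and reached the level tested through the controls (mean 0.381, against 0.0571 in GqCNO mice). Ciart reached it through 1 UMI in GqCNO mouse 801 (mean 0.429 in GqCNO mice, against 0.156 in controls). The highest Tef value, 2.57 in GqCNO mouse 801, was 2 UMIs. In the VTA the 4 differences ran from -0.26 for Nr1d2 to 0.29 for Nr1d1. In these 2 regions the summed astrocyte and microglial genes lay higher in GqCNO mice than in controls, with no test of the sums. The 6 oligodendrocyte genes overlapped, at 107 to 150 per 10000 in the VTA of GqCNO mice and 56.6 to 155 in controls. In the SN they summed to 88.3 to 192 and 77.7 to 142. The 6 astrocyte genes summed to 25.2 to 37.2 per 10000 in the VTA of GqCNO mice and 9.69 to 20.5 in controls, and to 26.5 to 46.3 and 14.3 to 24.4 in the SN. The 7 microglial genes summed to 19.2 to 47.3 per 10000 in the VTA of GqCNO mice and 1.55 to 12.4 in controls, and to 21.9 to 38.7 and 1.06 to 21.5 in the SN. The 4 DA neuron genes summed to 11.2 to 31.1 and 40.2 to 58.5 in the VTA, and to 7.71 to 48.2 and 27.5 to 61.0 in the SN, where the groups overlapped. Their part in the clock gene values was not tested.

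Whether mice kept their order in clock gene levels from region to region was asked with 28 correlations over mice (10 each for CP with LSX and CP with white matter, 4 each for CP with VTA and VTA with thalamus). None passed after Benjamini-Hochberg adjustment over the 28, and the smallest adjusted p was 0.117. Nr1d1 in CP and LSX had the smallest p, with a Pearson r of 0.82 (exact permutation p = 0.00417, adjusted p = 0.117) and a Spearman rho of 0.93 (exact permutation p = 0.00223, adjusted p = 0.0625) over 8 mice. Without the 2 mice farthest from the median in the CP (801 and 804) r was 0.77 (exact permutation p = 0.0806), and with each array pair centred on its mean it was 0.74 (exact permutation p = 0.0406, adjusted p = 0.217). Dbp in CP and LSX had r of 0.82 (exact permutation p = 0.0278, adjusted p = 0.26) and rho of 0.57 (exact permutation p = 0.151, adjusted p = 0.47). GqVeh mouse 802 was lowest in both regions. Without 802 and C2W2, the 2 mice farthest from the median in the CP, r was 0.65 (exact permutation p = 0.15), and with each array pair centred it was 0.80 (exact permutation p = 0.0173, adjusted p = 0.217). Per3 in the same regions went the other way, with r of -0.76 (exact permutation p = 0.0101, adjusted p = 0.141) and rho of -0.76 (exact permutation p = 0.0368, adjusted p = 0.269). Without mice 804 and 784, the 2 farthest from the median in the CP, whose LSX columns held the fewest UMIs, r was -0.39 (exact permutation p = 0.467). Correlations within an array pair, of 4 mice each, were not computed, since 4 mice are too few.

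**Figure D5:**
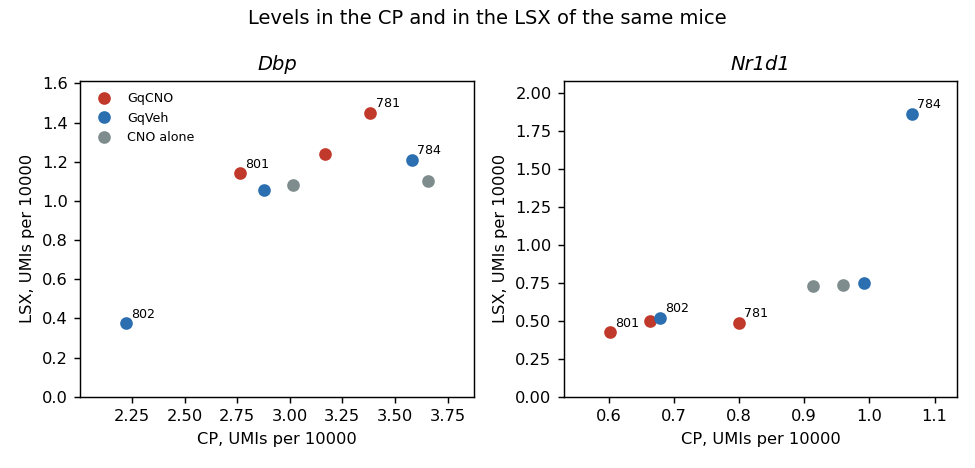
Level in the CP (x axis) and in the LSX (y axis) of the same 8 mice, in UMIs per 10000, for Dbp and Nr1d1, coloured by group, with some mice named. GqVeh mouse 802 is lowest in both regions for Dbp, at 2.22 and 0.376, and GqVeh mouse 784 is highest in both for Nr1d1, at 1.07 and 1.86.

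Across mice in the CP, the clock genes did not move as 1 group. As a description over 8 mice that share arrays and groups, Pearson r of log2 levels ran from -0.78 to 0.82 over the 45 pairs of clock genes, with a median of 0.15. Ciart was the clock gene most like Dbp (r = 0.82, rank 49 of 10812 genes) and Arntl the least (r = -0.65, rank 10639). Nr1d1 followed Ciart at rank 597 and Per1 stood at rank 10206. Among the genes most like Dbp of all genes tested were Selenoo, Slc45a1 and C87436 (r from 0.93 to 0.96). Those most like Arntl were Pole3, Ppid, Leo1, Spry2 and Nckipsd (r from 0.90 to 0.96), and of the clock genes Per1 came closest (r = 0.46, rank 552). GqVeh mouse 802 stood at the ends of these ranges. It had the lowest Dbp, Ciart (0.151) and Per2 (0.108) of 8 mice in the CP and the highest Per1 (0.752) and Arntl (0.276). In the LSX it again had the lowest Dbp and highest Arntl (0.319), on 13 and 11 UMIs. Its Per2 there was the highest (0.203), and its Per1 and Ciart ranked 5 and 7 from the highest. In the white matter its Dbp and Arntl ranked 6 and 5.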

How the data were processed

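Per the labels, reads were processed with Space Ranger against mm10 (submitters' processing notes; versions are not given in the sources used here). The authors chose the discs of each region in Loupe Browser, taking SN and VTA discs by TH-positive cell bodies and low glial markers, and deposited a median-normalized average signal per gene, region and mouse (47 columns, each array normalized separately). UMIs were recovered from the smallest step of each column: of the values below 200 steps, 100% lay within 0.05 of a whole number of steps. Columns held 7779 to 71906 UMIs (SN), 25808 to 350222 (VTA), 80837 to 444790 (thalamus), 4300381 to 7977003 (CP), 80525 to 1354667 (LSX) and 119422 to 405313 (white matter). Intervals and floors cover counting error only.

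Columns were rescaled to 10000. log2(value + constant), with 0.5 in midbrain and 0.05 in striatal sections, was compared over mice with limma 3.58.1 (R 4.3.3, variance trend, Benjamini-Hochberg over all genes tested), in 1 fit per region with 3 groups or on differences within the mouse. The constant understates changes of low genes. Alternatives were edgeR 4.0.16 on recovered UMIs, the methods' t-test, other scalings, constants and filters, an array pair block and leaving out mice. Scripts were tested on simulated data. The clock genes and lists were chosen with earlier results of these data known. All 10 genes were described, with genes from the 5 of highest r in the CP for Dbp and Arntl (part of the former is not reported here), and other list genes where they passed. p-values measure the spread between these mice, 4 to an array. The 2 arrays of the same 4 mice are an array pair.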

Additional observations from a re-analysis of the deposited data

Results flagged for a closer look

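In the 5 control mice, 46 sets of values (each clock gene in each region tested) were searched for a mouse far from the other 4, by its gap to the nearest value divided by the range. The rule flags about 1 in 20 sets of independent values of equal precision, and 7 were flagged. These sets share the same 5 mice and some values rest on few UMIs, so the 7 cannot be set against that rate. GqVeh mouse 784 had Dbp in the SN at 2.58 per 10000, on 3 UMIs, against 0.404 to 0.702 (gap over range 0.863). It also had Nr1d1 in the LSX at 1.86, on 20 UMIs, against 0.521 to 0.749 (0.830), and Nr1d2 in the white matter at 0.762, on 24 UMIs, against 0.332 to 0.369 (0.915). GqVeh mouse 802 had Nr1d2 in the VTA at 0.820, on 7 UMIs, against 0.371 to 0.442 (0.843). In the LSX it had Per2 at 0.203, on 7 UMIs, against 0.0931 to 0.123 (0.729), and Dbp low at 0.376, on 13 UMIs, against 1.06 to 1.21 (0.815). CNO alone mouse C2W2 had Tef in the CP at 2.59, on 1364 UMIs, against 1.81 to 2.03 (0.711).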

How the results depend on the processing

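No direction of a tracked clock gene turned under the alternatives run, and the 28 counts for group contrasts and responses were 0 under all of them. With the array pair as a replicate block 0 clock genes passed in any region, and the log2 difference of GqCNO was 0.40 for Per3 in the CP (adjusted p = 0.185 in limma), 0.49 for Ciart in the thalamus (adjusted p = 0.503) and -0.65 for Nr1d1 in the LSX (adjusted p = 0.995). In the control mice alone, 3 clock genes passed between CP and LSX and 1 between LSX and white matter. Between LSX and white matter 0 passed with TMM and 1 with a smaller constant. Of the correlations, 1 passed with TMM. With each mouse left out in turn, 4 to 7 clock genes passed between CP and LSX, 1 to 3 between LSX and white matter, 9 to 10 between CP and white matter and 3 to 4 between SN and thalamus, and 0 to 1 correlations passed (1 without GqCNO mouse 781). The cause was not tested. The share of all genes is not given for the control mice alone, the smaller constant or the fits with a mouse left out. Shifts in those counts therefore cannot be read as particular to the clock genes. An alternative chosen after the depth was seen left out both mice with LSX columns of under 10 discs (804 and 784). Few UMIs limited the SN and VTA, where 39 and 14 of the values were 0.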
